A study of Sus scrofa with 37 samples.

Results

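The genes described here encode parts of the machinery that moves, docks and fuses secretory granules: SNAP25, STX1A, VAMP2, SYT7, SCGN, RAB3A, RAB39A, PTPRN, PTPRN2 and AP3B2. They were chosen by name, with earlier results of these data known. All 10 had a row among the 25880 gene rows of the count tables. Endocrine cells store hormone in dense-core granules and release it when calcium enters the cell. A granule is tethered by Rab GTPases, and SNARE proteins on the granule and on the plasma membrane then zip together and pull the membranes into one. Synaptotagmins and other calcium-binding proteins couple this fusion to the calcium signal. Acinar cells of the exocrine pancreas also secrete by granule fusion, with a partly different set of SNARE and Rab proteins, and neurons share much of the endocrine set.

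RNA had been sequenced from pig pancreas (Sus scrofa) and from isolated pig islets, the clusters of endocrine cells within the organ, to compare animals of higher and lower islet density. A pancreas sample was 50 mg of tissue from the duodenal lobe. Islets had been purified and then kept in floating culture for 7 days, so the tissues differed in culture as well as in cell content. The libraries with counts were 8 High pancreas, 9 Low pancreas, 8 High islets and 9 Low islets, where High and Low are the labels for islet density, and 1 islet library, from animal 12AS51, for which the density label is N/A. The labels name no strain, age, genotype or treatment, and no way in which density was measured. Both tissues were counted in 16 animals, of which 11 carried the same density label in both and 4 carried opposite labels. For 11KS28 and 12AS51 the islet samples carry islets in the title and pancreas as source name; the title was followed.

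The islet libraries held 3237653 to 6702589 counts. Of the Low pancreas libraries, 7 held only 265000 to 536014 counts and are called the shallow libraries below; they comprise all 6 animals whose code begins with 14 and animal 12FS135. The other 10 pancreas libraries, 8 High and 2 Low (12FS161 and 15LS30, Low replicates 2 and 9), held 1855075 to 3922006. Levels are given as CPM (counts per 1000000), the count of a gene divided by the total of its library and scaled accordingly. A reference level of 3 counts was used, an approximate and not a strict upper bound for a gene with a count of 0. It came to between 5.597 and 11.3 CPM for the shallow libraries and between 0.448 and 1.62 CPM for all others. It covers counting error only. Several pancreas levels given below rest on fewer than 3 counts. CPM values are not divided by transcript length, so they are compared between libraries and not between genes.

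Endocrine identity was checked with 14 pan-endocrine genes that include none of the 10, such as CHGA and PCSK1. Their summed level was 19415 to 34740 CPM in the 17 islet libraries with a density label and 140 to 1180 CPM in 16 of the 17 pancreas libraries. The pancreas of 15LS30 stood apart at 6521 CPM. The islet library of 12AS51 stood apart too, at 5899 CPM, and its 10 most abundant genes took 87.8% of all counts. Its levels of the 10 genes were also low, and the values they move most are also given without them. In whole tissue, fewer cells of a type and less RNA per cell cannot be told apart.

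The comparison of tissues asks which parts of the machinery were enriched in islets. Of the 10 genes, 9 were higher in the 18 islet libraries than in the 17 pancreas libraries and none was lower. Among all 12339 genes tested, 31.1% were higher, 31.5% were lower and 62.6% differed in either direction at an adjusted p under 0.05 (edgeR's quasi-likelihood test; adjustment by Benjamini-Hochberg over all genes tested, here and below). The median log2 fold change of the 10 genes was 2.30, and that of all genes tested was −0.01. The 10 genes and the lists below were chosen with earlier results of these data known. Their shares beside those of all genes, here and below, are therefore descriptions. The increases ranged from 0.86 for PTPRN2 to 5.21 for RAB39A on the log2 scale, and VAMP2 was the gene that did not pass the test. RAB39A and STX1A had so few counts in pancreas that they passed the low-count filter through the islet libraries alone. For these genes a higher level in islets was therefore close to given, and their calls add little to the count. Without the islets of 12AS51 and the pancreas of 15LS30 the same 9 genes passed, and the log2 fold changes of SCGN, PTPRN and RAB39A were larger, at 5.36, 5.16 and 5.91. Leaving out the pancreas of 15LS30 alone gave 5.33, 5.09 and 5.86 for these genes and 4.32 for SNAP25.

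**Figure D1:**
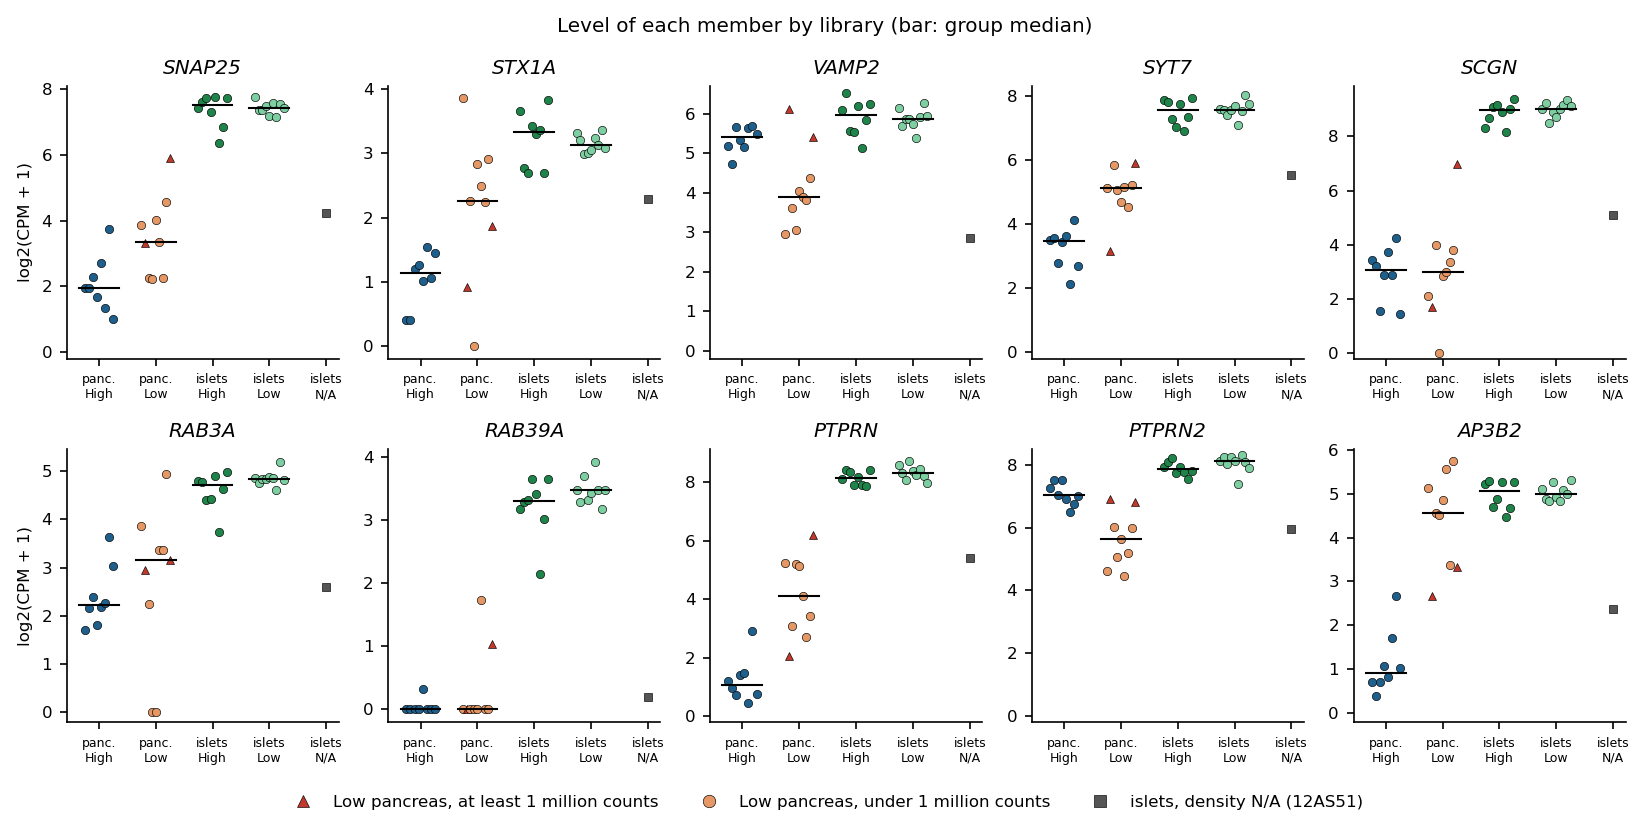
Level of each gene in each library, as log2(CPM + 1), by tissue and density label. Black bars are group medians, triangles the 2 deeper Low pancreas libraries (12FS161 left, 15LS30 right), orange circles the 7 shallow Low pancreas libraries and the square the islets of 12AS51. SYT7, SNAP25, SCGN, PTPRN and RAB39A separate the 17 labelled islet libraries from every pancreas library, while VAMP2 overlaps widely.

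Among the SNARE genes, SNAP25 showed the widest separation. Its product is the plasma membrane SNARE that supplies a pair of helices to the fusion complex. SNAP25 (ENSSSCG00000026985) ran from 80.9 to 216 CPM in High islets (median 182) and from 142 to 217 CPM in Low islets (median 172). In pancreas it ran from 1.03 to 12.4 CPM in High (median 2.87) and from 3.64 to 59.4 CPM in Low (median 9.28). Every labelled islet library lay above every pancreas library, and the highest pancreas library was that of 15LS30. The islets of 12AS51 held 17.8 CPM. Between tissues SNAP25 differed by 3.72 on the log2 scale (SE 0.32, adjusted p = 2.26e-13), and it was 4.34 without the islets of 12AS51 and the pancreas of 15LS30.

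STX1A, the syntaxin that pairs with SNAP25 at the plasma membrane, was a low-count gene in all libraries. STX1A (ENSSSCG00000007772) had 20 to 47 counts per library in islets and 0 to 5 in pancreas. That corresponded to 5.45 to 13.3 CPM in High islets (median 9.06), 6.94 to 9.29 CPM in Low islets (median 7.75) and 3.88 CPM in the islets of 12AS51. High pancreas ranged from 0.317 to 1.91 CPM (median 1.19) and Low pancreas from 0 to 13.5 CPM (median 3.77), at or near the level of 3 counts throughout. The tissues overlapped, and 3 pancreas libraries reached the lowest labelled islet library, among them the shallow library of 12FS135, where 4 counts made 13.5 CPM. On the log2 scale STX1A was 1.81 higher in islets (SE 0.36, adjusted p = 2.83e-05). Among Low libraries alone the value was 0.59 (SE 0.43, adjusted p = 0.236) and among High libraries alone 2.34.

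VAMP2, the SNARE carried on the granule itself, was at similar levels in both tissues. VAMP2 (ENSSSCG00000034868) ran from 34.0 to 91.0 CPM in High islets (median 62.1), from 40.8 to 76.0 CPM in Low islets (median 57.2) and was 6.27 CPM in the islets of 12AS51. High pancreas ran from 25.4 to 50.7 CPM (median 41.7), and Low pancreas from 6.75 to 68.9 CPM (median 13.9). At least the lowest labelled islet level was reached by 9 of 17 pancreas libraries. The log2 fold change was 0.21 (SE 0.17, adjusted p = 0.297). It was −0.03 among High libraries and −0.09 without the shallow libraries, and with no filter on low counts it was 0.56 with an adjusted p of 0.0353.

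Of the calcium-binding proteins, SYT7 is a synaptotagmin with high calcium affinity. SYT7 (ENSSSCG00000021906) was 119 to 247 CPM in High islets (median 189) and 136 to 259 CPM in Low islets (median 190). High pancreas held 3.43 to 16.7 CPM (median 10.1), and Low pancreas 8.05 to 58.9 CPM (median 33.7). The labelled islet libraries all lay above the pancreas libraries, and the islets of 12AS51, at 45.2 CPM, lay below the 2 highest of them. SYT7 was 2.79 higher in islets on the log2 scale (SE 0.29, adjusted p = 6.40e-11).

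SCGN encodes secretagogin, an EF-hand calcium sensor of neuroendocrine cells that binds SNAP25. SCGN (ENSSSCG00000001101) was 284 to 667 CPM in High islets (median 494) and 359 to 638 CPM in Low islets (median 509). High pancreas had 1.72 to 17.8 CPM (median 7.36) and Low pancreas 0 to 126 CPM (median 6.96). The value of 126 CPM belonged to 15LS30, and the next highest Low pancreas library held 15.1 CPM. The medians of High and Low pancreas were thus nearly the same, and both lay far below islets. The log2 fold change between tissues was 4.56 (SE 0.38, adjusted p = 1.05e-13). SCGN in the islets of 12AS51 was 33.6 CPM, with 509 CPM the median of the other 17 islet libraries.

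The Rab GTPases RAB3A and RAB39A differed in how sharply they marked islets. RAB39A was close to undetected in pancreas: 14 of 17 libraries had no count and the tissue held 4 counts in all. RAB39A (ENSSSCG00000031723) ran from 3.40 to 11.5 CPM in High islets (median 8.81) and from 8.06 to 14.1 CPM in Low islets (median 10.1). The islets of 12AS51 gave a single count in a library of 6702589, and every other islet library gave 11 to 62 counts. The fitted log2 fold change was 5.21 (SE 0.40, adjusted p = 1.05e-14), a size that depends on how a near-empty group is handled: limma-voom gave 3.43. In High pancreas the one library with a count, 15LS26, held 0.255 CPM from that count.

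RAB3A, a GTPase of synaptic vesicles and dense-core granules, was lower in pancreas but present in most libraries. RAB3A (ENSSSCG00000013897) held 12.4 to 30.5 CPM in High islets (median 24.99), 23.2 to 35.4 CPM in Low islets (median 27.6) and 5.07 CPM in the islets of 12AS51. High pancreas ran from 2.24 to 11.3 CPM (median 3.69) and Low pancreas from 0 to 29.5 CPM (median 7.96). There were 2 shallow libraries with no count and another, 14HS7, with 9 counts and the highest pancreas level. Its log2 fold change between tissues was 1.63 (SE 0.22, adjusted p = 3.83e-08).

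PTPRN and PTPRN2 encode IA-2 and phogrin, the paired transmembrane proteins of the dense-core granule membrane that are related to receptor tyrosine phosphatases. They behaved differently in pancreas. PTPRN (ENSSSCG00000016218) was 234 to 345 CPM in High islets (median 284), 251 to 420 CPM in Low islets (median 315) and 41.2 CPM in the islets of 12AS51. In High pancreas it ran from 0.381 to 6.47 CPM (median 1.12, from 1 to 12 counts), and in Low pancreas from 3.13 to 73.2 CPM (median 16.2). The log2 fold change of PTPRN was 4.33 (SE 0.49, adjusted p = 3.91e-10), and it reached 6.92 among High libraries and 3.15 among Low libraries.

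PTPRN2 was plentiful in pancreas as well. PTPRN2 (ENSSSCG00000026661) was 186 to 300 CPM in High islets (median 235), 166 to 316 CPM in Low islets (median 282) and 61.2 CPM in the islets of 12AS51. High pancreas ran from 89.3 to 185 CPM (median 130.6) and Low pancreas from 20.9 to 121 CPM (median 49.4). The highest pancreas value, 185 CPM, came from the same animal, 12AS51, whose islet library was the lowest. PTPRN2 was higher in islets by 0.86 (SE 0.23, adjusted p = 0.00133). Among High libraries the difference was 0.18 (SE 0.19, adjusted p = 0.428), and among Low libraries it was 1.63 (adjusted p = 8.72e-06).

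AP3B2 is the neuronal and neuroendocrine beta subunit of the AP-3 adaptor, which sorts membrane proteins to secretory and lysosome-related organelles. AP3B2 (ENSSSCG00000001807) was 21.0 to 38.2 CPM in High islets (median 32.2), 27.4 to 38.8 CPM in Low islets (median 31.0) and 4.18 CPM in the islets of 12AS51. High pancreas held 0.317 to 5.39 CPM (median 0.899, from 1 to 10 counts). Among the shallow libraries AP3B2 was 9.33 to 52.4 CPM (median 27.8, from 5 to 20 counts), and the 2 other Low pancreas libraries 5.37 and 9.02 CPM. Hence 6 pancreas libraries, all shallow, reached the range of the labelled islets. The log2 fold change between tissues was 1.51 (SE 0.47, adjusted p = 0.00479). It was 3.93 among High libraries, −0.09 (adjusted p = 0.837) among Low libraries and 3.29 without the shallow libraries. DESeq2 gave 0.69 with an adjusted p of 0.174.

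Counting only complete separation, no gene of the 10 had every islet library above every pancreas library, as 0.259% of all genes tested did. When the islets of 12AS51 were set aside, SYT7, SNAP25, SCGN, PTPRN and RAB39A separated completely, 5 of 10, and 6.52% of all genes did so. Of these, RAB39A had passed the low-count filter through the islet libraries alone. Within animals, SYT7, SNAP25, SCGN, PTPRN and RAB39A were higher in islets than in pancreas of the same animal in 16 of 16. STX1A, PTPRN2, RAB3A and VAMP2 were higher in 15 of 16 and AP3B2 in 13 of 16. The exceptions were 12AS51 for PTPRN2 and VAMP2, 12FS135 for STX1A, 14HS7 for RAB3A, and 12FS135, 14HS26 and 14HS7 for AP3B2. The last 3 are shallow pancreas libraries. The share of all genes that were higher in so many animals is not given here, and VAMP2 reached 15 of 16 without passing the test between tissues. The counts within animals are therefore descriptions.

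**Figure D2:**
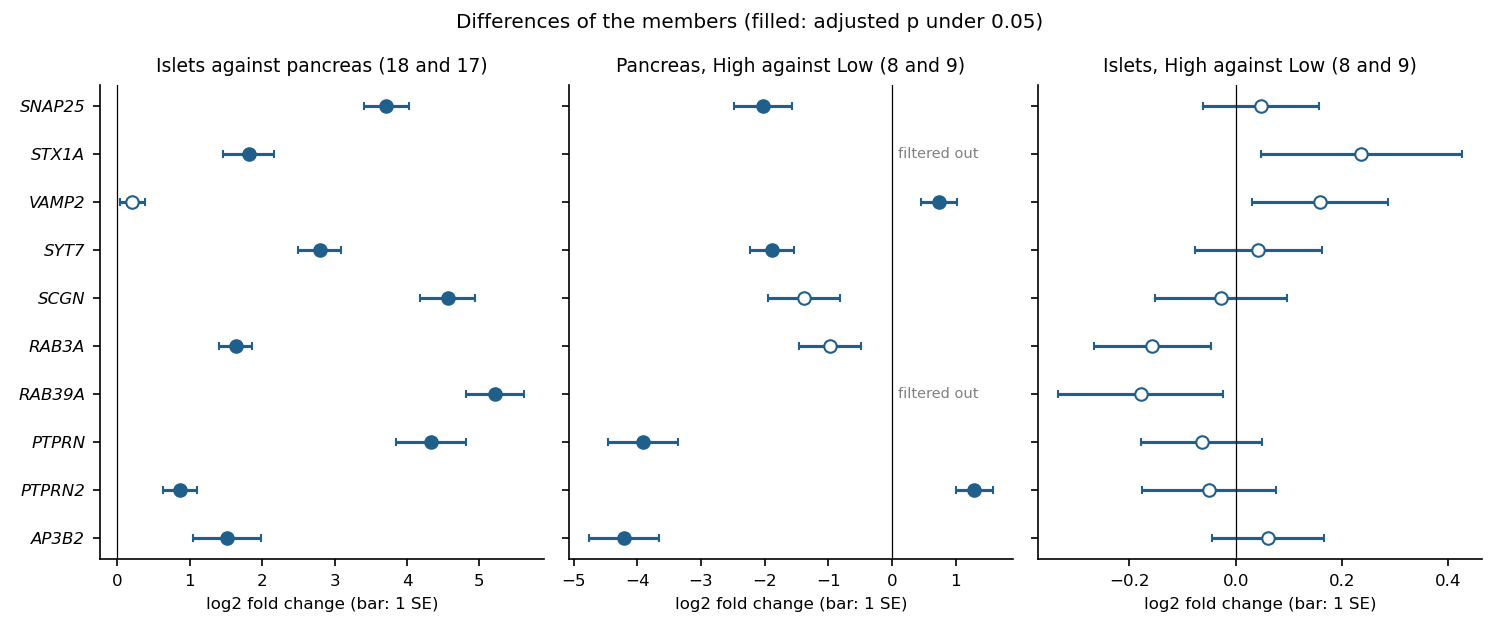
Log2 fold changes of the 10 genes with 1 SE in the comparison of tissues, in pancreas High against Low and in islets High against Low; scales differ between panels. Filled points passed an adjusted p of 0.05. The tissue panel holds 9 filled points, all to the right of 0, the pancreas panel 4 filled points to the left and 2 to the right, and the islet panel none.

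Related genes did not all follow the 10. Of 18 paralogues with a row, 15 were tested between tissues; 9 were higher in islets and 1 was lower. Among the 9, SYT5, STX2, CALB1 and RAB39B did not pass the low-count filter in pancreas alone. A higher level in islets was close to given for them. The synaptotagmins SYT13 (log2 fold change 4.38, SE 0.40) and SYT5 (3.98, SE 0.36) exceeded the value for SYT7, while SYT1, the classical synaptic calcium sensor, was at −0.08 (SE 0.52, adjusted p = 0.908) and SYT3 at −0.94 (adjusted p = 0.0570). Next to SNAP25, the broadly expressed SNAP23 was at −0.01 (SE 0.20, adjusted p = 0.954), and SNAP29 rose by 0.49. STX2 rose by 0.97 and STX3 by 1.26, and STX4 was at −0.19 (adjusted p = 0.542).

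The Rab3 family was split. RAB3C (4.28, SE 0.31) and RAB3B (3.996, SE 0.32) had larger islet differences than RAB3A, and RAB3D, the form known from exocrine zymogen granules, was lower in islets (−0.75, SE 0.17, adjusted p = 0.00024). RAB39B rose by 2.67 (SE 0.34). CALB1, an EF-hand protein like SCGN, rose by 2.28 (SE 0.24). AP3B1, the ubiquitous beta subunit that takes the place of AP3B2 in most cells, was at 0.25 (SE 0.14, adjusted p = 0.136). For paralogous genes, reads may be split between copies in a way that the counting options, not given in the sources used here, decide.

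**Figure D3:**
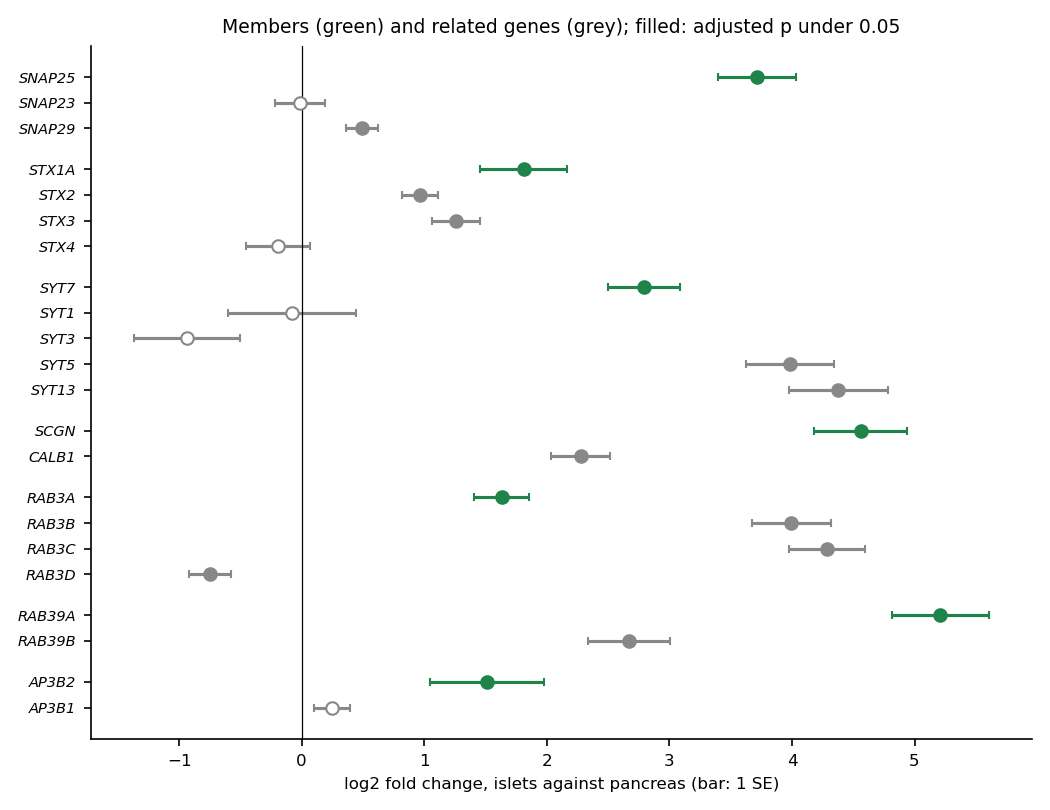
Log2 fold change between islets and pancreas with 1 SE for members of the set (green) and their tested relatives (grey), grouped by family; filled points passed an adjusted p of 0.05. SNAP23, STX4, SYT1, SYT3 and AP3B1 are open points near or below 0, and RAB3D is the filled grey point below 0.

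Lists of neighbouring steps were counted next, and their shares are to be read against the 31.1% of all genes tested that were higher and the 31.5% that were lower. Among synaptotagmins, 7 of 10 tested were higher in islets and 1 was lower, with a median log2 fold change of 2.48. SYT4 (4.54) led the list and SYT17 (−0.74) was the lower one. Of the higher ones, SYT4, SYT5, SYT11 and SYT14 did not pass the low-count filter in pancreas alone. For these a higher level in islets was close to given. Among SNARE proteins, 7 of 15 were higher and 2 lower (median 0.21), the lower ones being STX6 (−1.03), a syntaxin of the trans-Golgi network, and SNAP47 (−0.55). Priming factors and SNARE regulators divided evenly, with 8 of 23 higher and 8 lower (median 0.06), shares close to those of all genes. Complexin CPLX2 (4.09), the active-zone scaffold RIMBP2 (3.74) and BAIAP3 (3.33) were the highest. The Munc13 genes UNC13D (−3.16) and UNC13C (−3.11) and STXBP6 (−2.85) were the lowest. UNC13C and STXBP6 did not pass the low-count filter in islets alone, so a lower level there was close to given.

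Of Rab GTPases and their partners, 12 of 22 were higher and 7 lower (median 0.65). The synaptotagmin-like SYTL5 (−6.06) and SYTL2 (−4.65) and RAB27B (−4.90) were far lower in islets. SYTL5 and RAB27B did not pass the low-count filter in islets alone, so for them a lower level there was close to given. Among granule membrane and biogenesis genes, 16 of 32 were higher and 3 lower (median 0.42), led after PTPRN by SYP (3.36), synaptophysin, and SYN3 (2.65), a synapsin. SV2A (−2.002), ICA1 (−1.34) and VPS52 (−0.47) were lower. In the exocyst, the tethering complex of constitutive secretion, EXOC8 (0.86) and EXOC5 (0.80) were higher and EXOC2 (−0.42) was lower among 8 tested (median 0.11), fewer calls than among all genes. Of 9 EF-hand genes, 6 were higher, SCGN and CALB1 among them, and HPCAL1 (−1.61) was lower (median 1.21).

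The list drawn up for zymogen granule exocytosis had 3 of 8 genes higher and 4 lower in islets (median −0.38). Membership in this list does not make a gene, such as SYTL4 or RAB27A, particular to exocrine cells. RAB27B (−4.90), SYTL4 (−1.77) and STXBP2 (−0.78) were among the lower ones, and STX3, RAB27A (1.20) and STX2 were higher. Across all lists the corresponding median of all genes tested was −0.01, and the lists share genes with each other. The higher genes STX1A, STX2, RIMS2, RAB39A, RAB39B, AP3M2, EIPR1, SYN1 and CALB1 also did not pass the low-count filter in pancreas alone. The lower gene RPH3A did not pass it in islets alone. The calls of genes that passed through 1 tissue alone add little to the counts.

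To ask whether the machinery differed with density in the organ, High and Low pancreas were compared. Of the 10 genes, 8 passed the filter on low counts, and STX1A and RAB39A were not tested. AP3B2, PTPRN, SNAP25 and SYT7 were lower in High pancreas, PTPRN2 and VAMP2 were higher, and SCGN and RAB3A did not pass. This was 4 lower and 2 higher of 8. Of all 10634 genes tested, 21.5% were lower, 18.8% were higher and 40.3% differed either way, so calls were common throughout. The median was −1.63 for the 8 genes and 0.07 for all genes tested.

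Of the 8, AP3B2 differed most, by −4.21 on the log2 scale (SE 0.55, adjusted p = 2.92e-05). Its medians were 0.899 CPM in High and 22.6 CPM in Low pancreas, and 8 of 9 Low libraries lay above every High library. PTPRN changed by −3.91 (SE 0.55, adjusted p = 3.69e-05), with 7 of 9 Low libraries above every High library. SNAP25 changed by −2.03 (SE 0.46, adjusted p = 0.00156) and SYT7 by −1.88 (SE 0.35, adjusted p = 0.00031). For SNAP25 only 4 of 9 Low libraries exceeded every High library, and for SYT7 8 of 9 did. The High library of 16CS60 was the highest High library for all of these genes, and its pan-endocrine sum, 1180 CPM, was the highest of the High group.

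PTPRN2 and VAMP2 went the other way. PTPRN2 was higher in High pancreas by 1.29 (SE 0.29, adjusted p = 0.00135), with medians of 130.6 and 49.4 CPM. VAMP2 was higher by 0.74 (SE 0.28, adjusted p = 0.0395), with medians of 41.7 and 13.9 CPM. For each, 7 of 9 Low libraries lay below every High library, and those 7 were the shallow ones. The deeper Low libraries, 12FS161 and 15LS30, held 121 and 111 CPM of PTPRN2 and 68.9 and 41.4 CPM of VAMP2, within or above the High range. No gene of the 10 separated the groups completely in either direction, which 0.226% of all genes did with High above Low and 1.09% with High below Low.

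For SCGN the difference was −1.38 (SE 0.57, adjusted p = 0.0541) and rested on 15LS30; without that library it was 0.11 (adjusted p = 0.890). RAB3A was at −0.97 (SE 0.49, adjusted p = 0.113). The VAMP2 call was weak: its adjusted p rose to between 0.0519 and 0.0841 when 12FS131 among the High libraries, or any single shallow library, was left out, and without 12FS161 the value was 1.11 (adjusted p = 0.000689). With upper-quartile scaling the VAMP2 adjusted p was 0.0863 and with limma-voom 0.0578.

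Library depth and cell content moved with the density label in pancreas, in large part through the shallow libraries. All 7 shallow libraries were Low. Their summed level of 11 acinar genes with a row, of 15 listed, ran from 11630 to 26200 CPM, and it ran from 157502 to 240372 CPM in High pancreas and 113387 and 91057 CPM in the Low libraries of 12FS161 and 15LS30. The summed level of 12 of 13 neuronal marker genes ran from 48.5 to 164 CPM in the shallow libraries and from 11.1 to 62.5 CPM in High pancreas. It also reached 66.7 to 129 CPM in the labelled islet libraries, and which cells gave it was not tested. Of its genes tested between tissues, ELAVL4 (3.50) and TH (2.77) were higher in islets. GAP43 (−4.05) and NOS1 (−2.97) were lower, and NEFL was not called. The sum of 7 of 9 duct cell genes separated the shallow libraries, at 335 to 629 CPM, from High pancreas, at 1434 to 3001 CPM. That of 4 of 6 endothelial genes was 18.2 to 105 CPM and 91.4 to 264 CPM. For 7 of 8 Schwann cell genes it was 35.4 to 151 CPM and 13.0 to 49.1 CPM, and for 6 myeloid genes 78.4 to 201 CPM and 38.5 to 191 CPM. No gene of the acinar, neuronal, Schwann and myeloid lists was without a count throughout either group. The pan-endocrine sum ran from 140 to 324 CPM in the shallow libraries and from 215 to 1180 CPM in High pancreas. The deeper Low libraries, 12FS161 and 15LS30, held 2187 and 2234 CPM of the duct genes, within the High range. Their neuronal sums were 41.6 and 65.3 CPM and their endothelial sums 104 and 269 CPM. For Schwann cell genes they held 46.1 and 70.0 CPM, and for myeloid genes 83.2 and 76.9 CPM. The 10 most abundant genes took 53.3% to 71.7% of counts in the shallow libraries and 30.4% to 45.1% in High pancreas. In 12FS161 and 15LS30 they took 37.6% and 29.3%. As CPM is a share of the total, such genes lower the CPM of all others. Neurons use many of the same exocytosis genes, and what part these differences had in the results was not tested.

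None of the 8 genes was called when the shallow libraries were left out (8 High against 2 Low), nor were they called without the animals of code 14. No gene of any kind was called in these fits, of 13217 and 12844 tested. The 8 genes were also not called with the acinar level, the log2 library total or the neuronal marker level as a covariate. With the first 2 of these covariates no gene of any kind was called, and with the neuronal level 2 of 10634 were. The fold changes of PTPRN and SNAP25 stayed about as large in several of these fits. PTPRN was −4.07 (SE 0.65, adjusted p = 0.0789) without code 14, −3.66 (SE 0.75) with the acinar level, −3.69 (SE 0.75) with the log2 total and −2.66 (SE 0.71) with the neuronal level. SNAP25 was −2.43, −2.68, −2.52 and −1.49 in the same order, and AP3B2 was −3.01, −1.56, −1.39 and −2.65. Without the shallow libraries PTPRN stayed at −3.97 (SE 0.76, adjusted p = 0.301) and SNAP25 at −2.59 (adjusted p = 0.321), AP3B2 was −1.89 (adjusted p = 0.430) and VAMP2 0.0020. When 15LS30 was left out as well, PTPRN was −0.61, AP3B2 −1.60, SYT7 0.57 and SCGN 2.17, with adjusted p from 0.739 to 0.928, and that fit had a lone Low library, assumed to vary like the High ones. With the pan-endocrine level as a covariate, in contrast, the same 6 genes were called and SCGN was at −0.08. Density label, depth and acinar content cannot be told apart in these pancreas libraries.

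**Figure D4:**
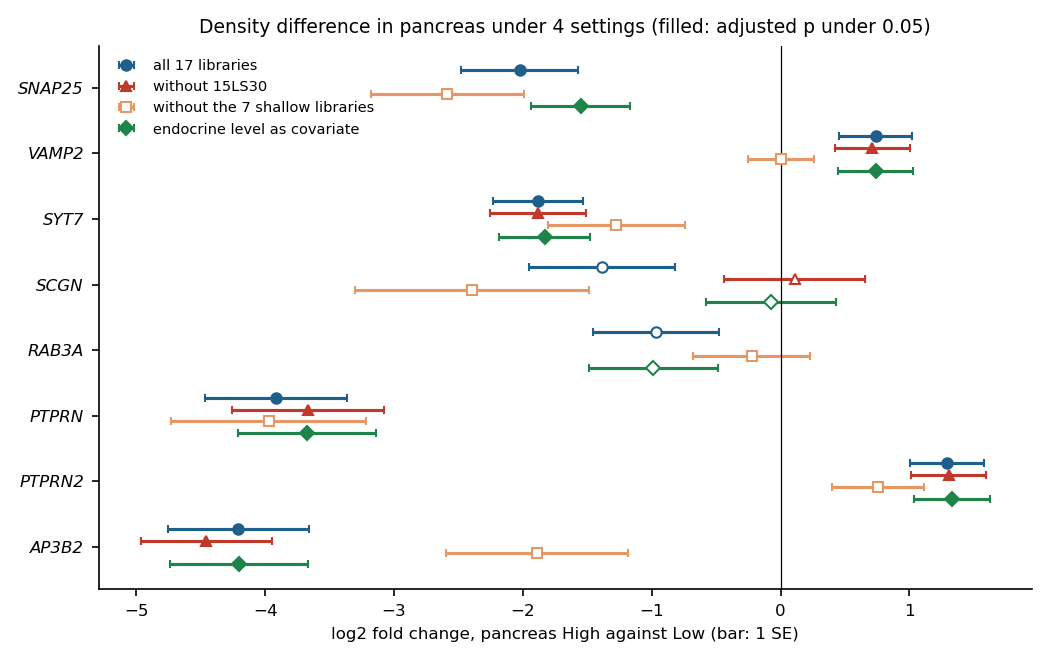
Log2 fold change of High against Low pancreas with 1 SE for the 8 tested genes, under 4 settings; filled points passed an adjusted p of 0.05, and a missing point means that the gene did not pass the low-count filter in that setting. Orange squares, fitted without the 7 shallow libraries, are all open, and the SCGN triangle, fitted without 15LS30, sits at 0.11.

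The neighbouring lists gave mixed directions in pancreas, where 18.8% of all genes tested were higher and 21.5% lower. Of 5 tested synaptotagmins, 4 were lower in High, with SYT3 (−2.86) and SYT13 (−2.13) below SYT7. Of 14 SNARE genes 2 were higher, SNAP23 (1.16) and VAMP2, and 3 lower, among them SNAP25 and STX3 (−0.87). Of 19 priming factors 1 was higher, STXBP5 (0.95), and 5 were lower, led by RIMS3 (−3.22), UNC13C (−2.92) and RIMBP2 (−2.25). Of 20 Rab genes and partners 4 were higher, with RAB27B (1.95), RAB2A (1.44) and RAB27A (1.26) first, and 3 lower: RAB3B (−1.43), RPH3A (−0.98) and MADD (−0.89).

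Among 27 granule membrane and biogenesis genes, 6 were higher, including AP1G1 (1.41) and CCDC186 (1.23), and 7 were lower, including SV2A (−2.42). EXOC5 (1.15), EXOC8 (0.67) and EXOC2 (0.63) were the 3 higher of 8 exocyst genes, and CALM2 (1.44) was the one EF-hand gene of 5 that was called. Of 8 zymogen granule genes RAB27B, RAB27A and SNAP23 were higher and STX3 was lower. The shares called among SNARE, Rab and granule membrane genes were near those of all genes.

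In isolated islets no difference with density was found. None of the 10 genes was called among 8 High and 9 Low libraries, and the share called was 0.0% of 12070 genes tested, higher, lower or in either direction. At an unadjusted p under 0.05 there were 257 genes, 2.13% of those tested, and none was of the 10, whose lowest unadjusted p was 0.167. DESeq2 and limma-voom also called none of the 10. Log2 fold changes ran from −0.18 (SE 0.16) for RAB39A to 0.24 (SE 0.19) for STX1A. The 95% bounds of the 10 reached at most 0.607 on the log2 scale, so larger differences lay outside the intervals of this fit.

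Within islets the levels varied little. Over the 17 labelled libraries the coefficient of variation ran from 17.03% for PTPRN2 and 17.3% for PTPRN to 24.97% for STX1A. The highest library held 1.79 times the lowest for PTPRN and 4.16 times for RAB39A. The High library of 15AS28 was the lowest labelled islet library for SYT7, SNAP25, SCGN, RAB39A, RAB3A, VAMP2 and AP3B2, and its 10 most abundant genes took 52.3% of counts. CPM is a share of the total, so a few dominant genes lower all others. The islets of 12AS51 lay below every labelled islet library for all 10 genes, by 2.12 times the median for STX1A to 64.3 times for RAB39A, the latter from a single count. For VAMP2 the factor was 9.12 and for SCGN 15.2.

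The density differences of the tissues were compared with each other in 34 libraries. The difference in pancreas minus that in islets passed the test for 6 of 10 genes. It was positive for PTPRN2 (1.58, SE 0.34) and negative for AP3B2 (−3.83, SE 0.48), PTPRN (−3.62, SE 0.52), SNAP25 (−1.96, SE 0.44), STX1A (−1.60, SE 0.53) and SYT7 (−1.62, SE 0.36). This was 1 positive and 5 negative of 10, as against 17.7% positive, 22.2% negative and 39.9% of either sign among 14337 genes. Adjusted p was at most 0.0193, for STX1A, which did not pass without the pancreas of 12FS135 (−1.29, adjusted p = 0.0847). STX1A had too few counts in pancreas to be tested there alone, and its islet counts carried it past the filter here. Its value therefore rests on a pancreas difference that the fit of pancreas could not test. SNAP25 was −1.20 without the pancreas of 15LS30, and VAMP2 passed without that of 12FS161 (1.21, adjusted p = 0.000487). With the animal as a block, SNAP25 (−1.24, adjusted p = 0.0857) and STX1A (−1.60, adjusted p = 0.109) were not called, and VAMP2 was (1.49, adjusted p = 0.0061). Without the shallow libraries AP3B2 (−1.92), PTPRN (−3.88) and SNAP25 (−2.59) passed and PTPRN2, STX1A and SYT7 did not. Of all 15210 genes tested in that fit, 9 were positive and 52 negative. Its Low pancreas libraries were 12FS161 and 15LS30, the latter with a pan-endocrine sum of 6521 CPM. How far these 3 calls rest on 15LS30 was not tested.

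To set each gene against the endocrine content of its library, its CPM was expressed per 1000 CPM of the pan-endocrine sum. In the 17 labelled islet libraries this ratio had a median of 10.6 for PTPRN, 17.4 for SCGN, 5.64 for SNAP25, 6.44 for SYT7 and 1.10 for AP3B2. The pancreas of 15LS30 gave 11.2, 19.3, 9.11, 9.03 and 1.38 for the same genes, so SCGN and PTPRN there stood to endocrine transcripts about as in islets. SCGN in High pancreas had a median ratio of 19.5, also near that of islets.

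PTPRN2, VAMP2, RAB3A, SYT7 and STX1A were higher relative to the endocrine sum in every High pancreas library than in any labelled islet library. The median ratios of PTPRN2 and VAMP2 in High pancreas were 412 and 116, and those in islets were 9.44 and 1.96. RAB3A ran from 4.18 to 33.6 in High pancreas (at most 1.31 in islets) and SYT7 from 13.95 to 39.96 (at most 9.60). STX1A had medians of 3.76 and 0.281, from at most 5 counts in pancreas. In the shallow libraries AP3B2 (median 130), SYT7 (167), PTPRN (84.3) and SNAP25 (48.2) had ratios far above those of islets, from few counts. In High pancreas PTPRN had a ratio of 2.95, below that of islets, from 1 to 12 counts per library. The ratios are descriptions, and which cells the transcripts came from was not tested.

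**Figure D5:**
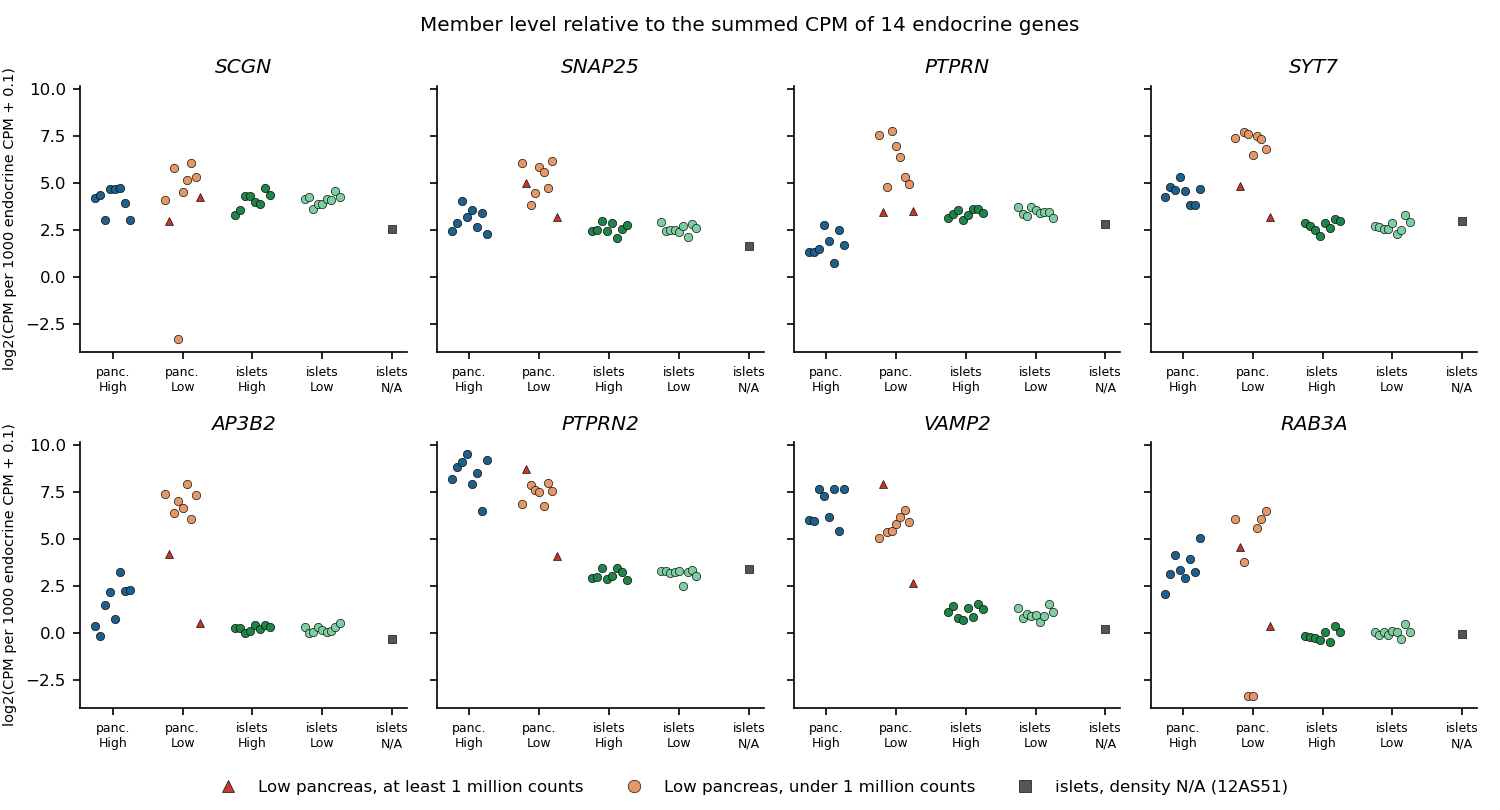
Level of 8 genes per 1000 CPM of the summed 14 pan-endocrine genes, as log2(ratio + 0.1), in each library by tissue and density label; symbols are as in the plot of levels. The right-hand triangle in Low pancreas is 15LS30, close to the islet libraries for SCGN, PTPRN and AP3B2, whereas PTPRN2, VAMP2, RAB3A and SYT7 lie above every islet library in all 8 High pancreas libraries.

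Among islet libraries, levels in CPM were related to the mean log2 level of the pan-endocrine genes. Over all 18 libraries Pearson's r ran from 0.53 for STX1A to 0.98 for SNAP25, but these values rest on the 2 libraries farthest from the median endocrine level, 12AS51 and 15AS28. Without them PTPRN kept r = 0.83 (Spearman's rho 0.90, n = 16, permutation p = 3e-05, adjusted over 10 relations 0.0003) and SNAP25 r = 0.66 (rho 0.56, permutation p = 0.0062, adjusted 0.031). The other 8 genes had r from −0.07 for SCGN to 0.57 for AP3B2, with adjusted p of at least 0.0529. On TMM-scaled log2 CPM none of the 10 relations passed, and SNAP25 was highest at r = 0.53 (adjusted permutation p = 0.246). Both measures share the library total.

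Among all genes tested in islets, those most like a member in TMM-scaled log2 CPM were named by Pearson's r over 18 libraries. PITPNM1 was closest to SYT7 (r = 0.96), ABCE1 to RAB39A (0.98), DDX31 to VAMP2 (0.92), SLC38A10 to PTPRN2 (0.95), XRCC1 to STX1A (0.92) and PITPNM3 to AP3B2 (0.86). SNAP25 was closest to DNAI7 (0.78), RAB3A to UQCC1 (0.88) and PTPRN and SCGN to genes without a symbol. Without 12AS51, PITPNM1 (0.88), ABCE1 (0.91), DDX31 (0.92) and PITPNM3 (0.78) were still first for their genes, and the first gene of the other 6 was another. The closest pair within the 10 over these 17 libraries was SYT7 and VAMP2 (r = 0.79), followed by PTPRN and PTPRN2 (0.59). By rank among all genes, VAMP2 was at 22 for SYT7, PTPRN2 at 167 for PTPRN and PTPRN at 578 for PTPRN2. The median r of SNAP25 with the other 9 was 0.04.

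Strand was not stated for the counting, and in the RefSeq table (Sscrofa11.1) 2 of the 10 overlap another coding gene: PTPRN overlaps DNAJB2 and RAB39A overlaps SLC35F2. SCGN, RAB39A and AP3B2 overlap uncharacterised entries. Reads of such neighbours cannot be told apart from those of the gene.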

How the data were processed

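RNA-seq counts of 35 libraries (pig pancreas and islets) were used. The deposited tables hold whole-number counts per Ensembl pig gene; per the submitters' processing notes, FastQC, HISAT2 2.0.2, Subread, edgeR and build susScr3 were used, with no role or order, and how reads were counted (strand, annotation release) is not given in the sources used here. Of the columns, 1 had no matching sample and was left out, and 2 islet samples (15LS27 and 15LS30) are not analysed here. Columns were matched by animal code and tissue; groups follow title and density label. Symbols came from an Ensembl table (14857 of 25880 rows matched). Depth was 265000 to 6702589 counts per library. No 2 libraries of a group were identical (128 pairs).

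Genes were tested with edgeR 4.0.16 (R 4.3.3): filterByExpr, TMM, robust quasi-likelihood F test, two-sided, Benjamini-Hochberg over all genes tested, threshold 0.05. SE is the absolute log2 fold change divided by the square root of F. TMM uses scaled library sizes, so CPM medians and fold changes can differ. Correlations used 100000 permutations (scipy 1.17.1). The fits were tested on simulated counts. Alternatives used RLE and upper-quartile scaling, DESeq2 1.42.0, limma-voom 3.58.1, other low-count filters (none, 1 CPM), genes above 5% of a library removed, each library left out, covariates, subsets and the animal as a block.

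The animal codes in the labels pair libraries across tissues. As a check, deviations from the tissue mean (8754 genes) correlated between the tissues of an animal at a median of −0.02 (range −0.38 to 0.30), above 0.1 in 5 of 16 animals, and 4 of 16 islet libraries correlated best with their own animal.

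Named were the 10 genes, their paralogues with a row, up to 3 highest and 3 lowest called genes per list and comparison, and the genes most correlated with each of the 10. Some genes that this rule names are not reported here. The 10 genes and all lists were chosen with earlier results of these data known. Sequences and coordinates are not given: the reference table names another build.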

Additional observations from a re-analysis of the deposited data

Results flagged for a closer look

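A single library lay far from the rest of its group in 11 of 40 combinations of gene and group tested (Dixon's criterion). The criterion is set to about 1 in 20 for normally distributed values. CPM from few counts are not such values, and the same libraries recur over genes, so the count is a description. In Low pancreas the library of 15LS30, with the pan-endocrine sum of 6521 CPM, was the highest for SCGN (125.7 CPM, others 0 to 15.1), PTPRN (73.2 CPM, others 3.13 to 37.1) and SNAP25 (59.4 CPM, others 3.64 to 22.9). In High pancreas 16CS60 was the highest for SNAP25 (12.4 CPM, others 1.03 to 5.61), PTPRN (6.47 CPM, others 0.381 to 1.78) and AP3B2 (5.39 CPM, others 0.317 to 2.29), and its pan-endocrine sum was the highest of that group, 1180 CPM.

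Other distant libraries rested on few counts. STX1A in the shallow pancreas library of 12FS135 was 13.5 CPM from 4 counts, RAB3A in that of 14HS7 was 29.5 CPM from 9 counts, and RAB39A in that of 14HS26 was 2.32 CPM from 1 count. RAB39A in the High pancreas of 15LS26 was 0.255 CPM, also from 1 count. In Low islets, RAB3A of 15LS26 was 35.4 CPM (145 counts), with 23.2 to 28.4 CPM in the others.

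For 6 genes the High minus Low difference in pancreas was unlike that in islets by an interaction test: AP3B2 −3.83, PTPRN −3.62, SNAP25 −1.96, SYT7 −1.62, STX1A −1.60 and PTPRN2 1.58 on the log2 scale. Of these, STX1A had too few counts in pancreas to be tested there alone. Depth and acinar content moved with the label in pancreas, and their part in these differences was not tested.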

How the results depend on the processing

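For islets against pancreas, 7 to 10 of the 10 genes were called higher and 0 lower over 13 alternatives, and 9 without any single library. Values that changed sign were VAMP2 without the shallow libraries (−0.094) and among High libraries (−0.027), and AP3B2 among Low libraries (−0.094). The replicate block by animal changed no call there (9 higher); in the comparison of the density differences it gave 2 higher and 3 lower, with SCGN at 0.20. That comparison had 2 higher under no filter, the 1 CPM filter, limma-voom and without genes above 5% of a library; leaving out single libraries gave 1 to 2 higher and 4 to 7 lower, SCGN from −1.46 to 0.58. Without the shallow libraries it had 0 higher and 3 lower (9 higher and 52 lower of all 15210 genes tested), RAB3A at 0.0052 and VAMP2 at −0.059. STX1A was not called there without 12FS135 (adjusted p = 0.0847).

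For pancreas, no gene of the 10 was called (0 higher, 0 lower) with the acinar level, log2 total or neuronal level as covariate. The same held with groups by the label of the islets, without code 14 animals and without the shallow libraries. Of all genes tested none was called in these fits, apart from 2 with the neuronal level. Several folds stayed about as large as the values without these changes: PTPRN was −3.66, −3.69 and −2.66 and SNAP25 −2.68, −2.52 and −1.49 with the 3 covariates in turn. VAMP2 was −0.37 with the acinar level and −0.25 with log2 total. With the islet label SNAP25 was 0.30 and SCGN 0.89. Without the shallow libraries and 15LS30, SYT7 was 0.57, SCGN 2.17 and VAMP2 −0.38; without code 14 and 15LS30, SCGN was 2.02. Upper-quartile scaling and limma-voom gave 1 higher, the former with SCGN also called (−1.50, adjusted p = 0.0420) and 5 lower, and animals with like labels in both tissues 2 lower. Upper-quartile scaling gave 1467 higher and 2772 lower genes in all, with the median of all genes at −0.11, as against 1998 and 2285 with TMM. With no filter on low counts 3746 were higher and 7090 lower. Single libraries left out gave 1 to 2 higher and 3 to 5 lower, and SCGN from −1.67 to 0.11; SCGN passed without Low replicates 2, 4 or 5 (adjusted p from 0.0123 to 0.0489), and SNAP25 and RAB3A fell below the filter in 6 of these 17 fits.

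For islets none of the 10 was called in any alternative, and these uncalled values changed sign. With the pancreas label SCGN was 0.00956, PTPRN 0.000253, PTPRN2 0.20 and RAB3A 0.16, and with like labels SCGN was 0.00465. Without code 14 SYT7 was −0.11, SNAP25 −0.042, PTPRN 0.055, PTPRN2 0.029, RAB39A 0.0037 and VAMP2 −0.040. Without 11KS28 SYT7 was −0.0069 and SCGN 0.044; single libraries left out gave SYT7 from −0.0069 to 0.11 and SCGN from −0.074 to 0.044. The correlations with endocrine level passed for 2 genes without 12AS51 and 15AS28 (SCGN −0.067) and for 0 on the TMM scale (SYT7 −0.058, STX1A −0.20, SCGN −0.16, PTPRN2 −0.075, VAMP2 −0.067). Other causes of these changes were not tested. Depth limits the shallow libraries most, where a level under 5.597 to 11.3 CPM is under 3 counts.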
